A study of Mus musculus with 9 samples.

Results

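Expression of 8 genes that define T and B lymphocytes was followed through 9 bulk RNA sequencing libraries of mouse aorta. The genes were chosen by symbol: Cd3e, Cd3d, Cd4, Cd8a and Lck for T cells, and Cd79a, Cd79b and Ms4a1 for B cells. All 8 were found among the 17179 gene symbols of the series. The libraries came from C57BL/6J mice in 5 groups, killed on day 28. The 2 normal libraries came from mice that drank distilled water. Every other library came from mice given β-aminopropionitrile (BAPN) at 1 g/kg/day, a lysyl oxidase inhibitor that weakens the cross-links of elastin and collagen and is used to provoke aortic dissection. Of these, 2 libraries received BAPN alone. A further 2 received BAPN and, from day 1, intraperitoneal TPA at 50 ng/g/day, which activates the transcription factor AP-1. Another 2 received BAPN with the AP-1 inhibitor T-5224 at 5 mg/kg/day, gavaged from day 7 or 14. The last library received BAPN and coenzyme Q10 (coQ10) at 10 mg/kg/day by gavage from day 7 or 14. Its label is written "co110" and was read as coQ10. For T-5224, the title of replicate 1 says 2 weeks and that of replicate 2 says 3 weeks. The age and sex of the mice, any pooling, and which animals each library represents were not given in the sources used here.

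T cells recognise antigen through a receptor that signals through the CD3 chains. The co-receptors CD4 and CD8 bind the major histocompatibility molecules and bring the kinase LCK to the receptor. B cells carry an immunoglobulin as their receptor, and its signal passes through the CD79A and CD79B chains. In healthy arteries lymphocytes are scarce and sit mainly in the adventitia and the surrounding fat, where small lymphoid clusters and lymph nodes also lie.

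The Cd3 genes stand side by side on mouse chromosome 9 (RefSeq, build GRCm38), with Cd3e at chr9:44998735-45009663 and Cd3d at chr9:44981769-44987052, 11682 bases apart. Cd3g, the third chain of the cluster, lies 1337 bases from Cd3d at chr9:44969572-44980431. The promoters of Cd3e and Cd3d, which are neighbours with different levels in several libraries, are shown beside that of Cd79a, which has the highest mean level of the 3 B cell genes chosen. Each covers 250 bases before to 50 bases after the start of transcription, from RefSeq on build GRCm38.p6, written on the gene's own strand. Capitals mark AGGAAG or its complement CTTCCT, the core bound by ETS factors, a family that includes transcription factors of lymphocytes.
Cd3e, chr9:45009562-45009861, minus strand: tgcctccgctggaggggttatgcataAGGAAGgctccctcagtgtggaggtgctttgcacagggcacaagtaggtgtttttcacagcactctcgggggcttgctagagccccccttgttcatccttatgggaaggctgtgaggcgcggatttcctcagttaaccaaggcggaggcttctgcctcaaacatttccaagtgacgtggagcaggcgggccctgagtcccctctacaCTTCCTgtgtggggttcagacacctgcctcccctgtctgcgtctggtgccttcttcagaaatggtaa
Cd3d, chr9:44981536-44981835, plus strand: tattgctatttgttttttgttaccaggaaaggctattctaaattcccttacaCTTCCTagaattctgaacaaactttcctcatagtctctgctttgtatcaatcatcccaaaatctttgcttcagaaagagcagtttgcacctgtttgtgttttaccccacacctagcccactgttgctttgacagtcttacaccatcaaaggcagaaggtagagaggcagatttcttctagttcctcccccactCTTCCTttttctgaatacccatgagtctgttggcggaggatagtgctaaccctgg
Cd79a, chr7:24897247-24897546, plus strand: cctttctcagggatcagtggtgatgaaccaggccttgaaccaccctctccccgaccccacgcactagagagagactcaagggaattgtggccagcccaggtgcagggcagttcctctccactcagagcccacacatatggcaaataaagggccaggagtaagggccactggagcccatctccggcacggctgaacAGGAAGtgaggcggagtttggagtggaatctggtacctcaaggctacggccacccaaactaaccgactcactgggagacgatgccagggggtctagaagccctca
The ETS core occurred 2 times in the Cd3e window, 2 times in the Cd3d window and 1 time in the Cd79a window. At its nearest it begins 17 bases before the start site used for the Cd3e window, 5 before that of Cd3d and 55 before that of Cd79a. For Cd3e and Cd3d this start site lies inside the gene bounds given above, so these distances do not count from those bounds. Among all 32851 mouse promoter windows of the same length, 35.4% held this core on either strand, so its presence does not set these genes apart. The octamer ATTTGCAT and the RUNX core TGTGGT, searched on both strands, had no match in these 3 windows, and 1.74% and 16.8% of all windows held them. Promoter sequences were found for 5 of the 8 genes, 6 windows in all since Lck has 2.

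Values are FPKM, which scale fragments by transcript length and library size, so levels are per length and can be compared between genes. A gene not listed in a library was set to 0. The libraries also differed in genes of blood, the Y chromosome and airway, and the part of treatment in this was not tested. Haemoglobin genes took 68.9 to 74.1% of the FPKM sum in the 4 BAPN and TPA libraries, 1.03 to 1.25% in normal, 40.8% and 11.2% in T-5224 and 5.40% in coQ10. Y-linked genes were listed in 8 libraries and in none for normal replicate 1. Scgb1a1, a secretory protein of airway epithelium chosen after its values were seen, was at 9385 FPKM in normal replicate 1, 8627 and 2436 in TPA, 3220 in T-5224 replicate 2 and at most 22.5 in the other 5. Sftpc, a gene of alveolar epithelium also chosen after its values were seen, followed it only in part. It was at 188.89 FPKM in normal replicate 1, 0.41 and 0.49 in TPA, 5.71 in T-5224 replicate 2 and at most 1.55 in the other 5. The labels call the cells vascular, and the smooth muscle gene Acta2 was present everywhere, from 246 FPKM in BAPN replicate 2 to 9310 in normal replicate 2. In bulk tissue, fewer cells of a type and less RNA per cell cannot be told apart.

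The CD3 chains transmit the signal of the T cell receptor. Cd3e stood at 1.85 and 0.21 FPKM in normal replicates 1 and 2, 1.87 and 9.99 with BAPN alone, 8.77 and 6.81 with TPA, 0.84 and unlisted with T-5224, and 0.69 in coQ10. BAPN replicate 2 and both TPA libraries were high, and BAPN replicate 1 lay at the level of normal replicate 1. Cd3d stood, in the same order, at 0.60 and 0.15 FPKM in normal, 2.60 and 18.90 with BAPN alone, 4.77 and 2.42 with TPA, 0.35 and 1.68 with T-5224, and was unlisted with coQ10. For Cd3d, BAPN replicate 2 alone was far above the rest, and BAPN replicate 1 fell between the TPA libraries. Although the genes are neighbours, the ratio of Cd3d to Cd3e, where both were listed, ran from 0.324 in normal replicate 1 to 1.89 in BAPN replicate 2, and T-5224 replicate 2 listed Cd3d but not Cd3e.

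Cd4 marks helper T cells, and in the mouse some dendritic cells and macrophages carry a little of it. Its level was 1.71 and 0.11 FPKM in normal, 1.16 and 5.48 with BAPN alone, 10.08 and 3.70 with TPA, 0.47 and 1.76 with T-5224, and 0.25 in coQ10. TPA replicate 1 held the highest value, and the normal, BAPN and T-5224 ranges overlapped. Cd8a, a chain of the co-receptor of cytotoxic T cells that some dendritic cells also carry, was at 0.72 and 0.17 FPKM in normal, 1.15 and 8.92 with BAPN alone, 5.64 and 2.81 with TPA, 0.21 and 0.92 with T-5224, and 0.28 in coQ10. The highest Cd8a value belonged to BAPN replicate 2, and both normal libraries lay below both BAPN libraries. Cd4 exceeded Cd8a in 6 of the 9 libraries, with a ratio of 2.38 in normal replicate 1 against 0.614 in BAPN replicate 2.

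Lck encodes the kinase that starts receptor signalling. It had the highest level of the 5 T cell genes in every library but normal replicate 1, with 1.36 and 0.30 FPKM in normal, 4.49 and 40.65 with BAPN alone, 12.55 and 12.54 with TPA, 1.61 and 2.63 with T-5224, and 1.22 in coQ10. The TPA replicates were nearly equal for Lck, whereas the BAPN replicates differed 9.05-fold. Lck made up 21.8% of the summed T cell FPKM in normal replicate 1, 48.4% in BAPN replicate 2 and 50.0% in coQ10.

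Cd79a and Cd79b form the signalling part of the B cell receptor. Cd79a stood at 10.97 and 0.38 FPKM in normal, 18.71 and 112.73 with BAPN alone, 64.21 and 11.17 with TPA, 3.55 and 1.68 with T-5224, and 1.28 in coQ10. In BAPN replicate 2 it lay above 96.5% of the listed genes, and in normal replicate 2 above 13.6%. Cd79b was at 11.61 and 0.41 FPKM in normal, 7.91 and 65.84 with BAPN alone, 33.26 and 5.86 with TPA, 3.07 and 2.64 with T-5224, and 2.03 in coQ10. The ranges of normal and BAPN overlapped for Cd79b, because normal replicate 1 was above BAPN replicate 1. Ms4a1, which encodes the B cell surface protein CD20, was at 5.10 and 0.09 FPKM in normal, 2.00 and 8.58 with BAPN alone, 13.96 and 1.33 with TPA, 1.29 and unlisted with T-5224, and unlisted in coQ10. Its order differed from that of Cd79a, with TPA replicate 1 highest.

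**Figure D1:**
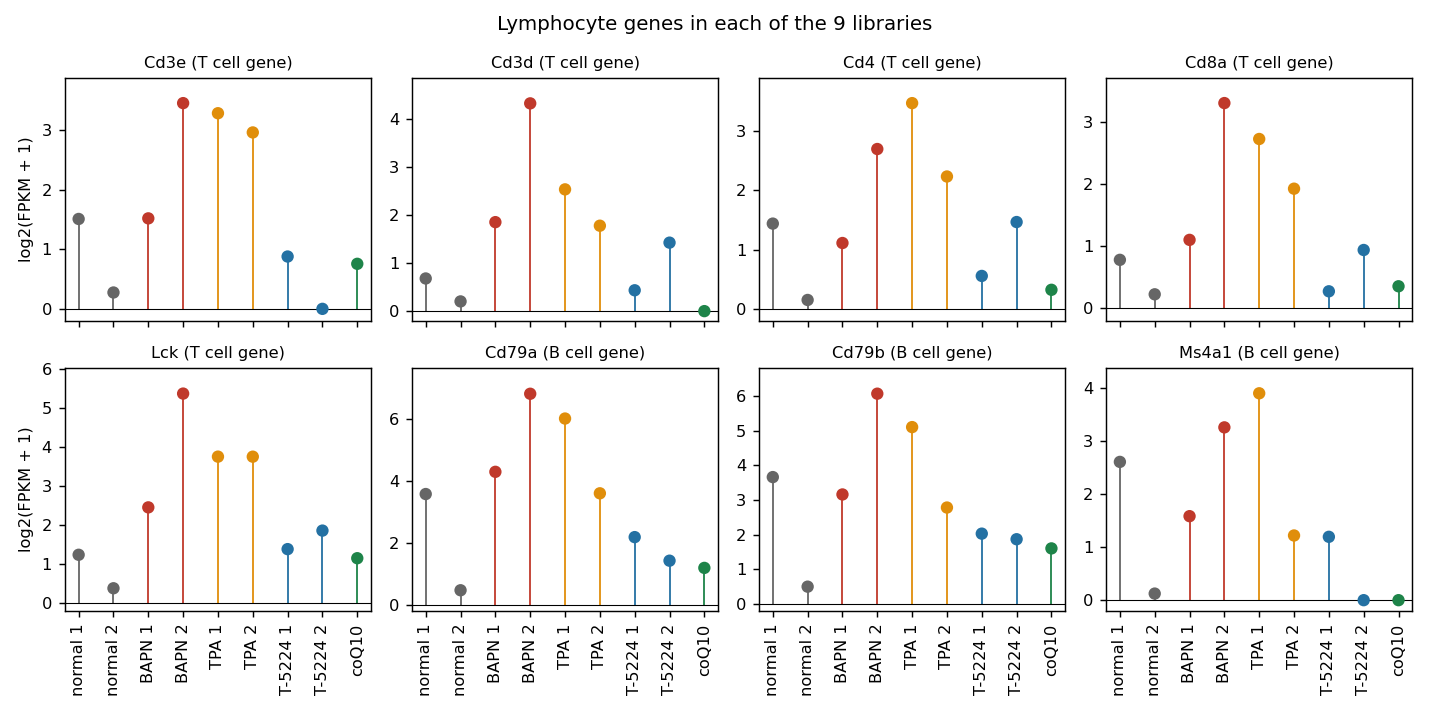
Each panel shows 1 lymphocyte gene as log2(FPKM + 1) in the 9 libraries, coloured by group, with 0 for a gene that was not listed; the vertical scale differs between panels. BAPN replicate 2 holds the highest value of 6 genes and TPA replicate 1 that of Cd4 and Ms4a1.

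Summed over the 8 genes, the libraries ran from 271 FPKM in BAPN replicate 2 through 153 in TPA replicate 1, 46.6 in TPA replicate 2, 39.9 in BAPN replicate 1 and 33.9 in normal replicate 1 to 11.4 and 11.3 in T-5224, 5.75 in coQ10 and 1.82 in normal replicate 2. The order was the same with haemoglobin left out of each FPKM sum. By group, the mean sum was 155 ± 163 FPKM in BAPN (SD, n = 2), 99.9 ± 75.4 in TPA (n = 2), 17.9 ± 22.7 in normal (n = 2) and 11.4 ± 0.0566 in T-5224 (n = 2). The small T-5224 SD hides opposite differences between replicates 1 and 2. The T cell sum was 3.48 and 6.99 FPKM there, and the B cell sum 7.91 and 4.32. The ranges of BAPN and TPA overlapped, the T-5224 and coQ10 values lay inside the normal range, and the normal range lay below both BAPN and both TPA libraries.

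Replicates of a group differed widely in these genes. All 8 genes were at least 1 log2 unit apart between the BAPN replicates, on the log2(FPKM + 1) scale, against 9.56% of the 12997 tested genes. All 8 were higher in replicate 2, as were 5976 of the tested genes. Between the normal replicates 5 of the 8 were at least 1 log2 unit apart, against 23% of all genes. All 8 were higher in replicate 1, and the median difference of all tested genes was -0.21 log2 units (replicate 2 minus replicate 1). Between the TPA replicates 4 were that far apart, against 4.15%, and between the T-5224 replicates 1 was, against 36.9%. This scale shrinks differences between the low T-5224 values. In FPKM, Cd3d differed 4.80-fold, Cd8a 4.38-fold and Cd4 3.74-fold between them, and Cd3e and Ms4a1 were unlisted in replicate 2. The fold between BAPN replicates lay between 4.29 for Ms4a1 and 9.05 for Lck. In normal it ran from 4.00 for Cd3d to 56.7 for Ms4a1.

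The B cell genes varied between replicates more than the T cell genes in normal and TPA. The median difference of replicate 2 minus replicate 1 was -3.12 log2 units for the 3 B cell genes and -0.86 for the 5 T cell genes in normal, and -2.42 and -0.75 in TPA. In BAPN the medians were close, at 2.53 for B and 2.21 for T. In T-5224 they had opposite signs, at -0.76 for B and 0.67 for T. The ratio of summed B to summed T cell FPKM was therefore uneven within groups, at 4.44 and 0.936 in normal, 2.54 and 2.23 with BAPN alone, 2.67 and 0.649 with TPA, 2.27 and 0.618 with T-5224, and 1.36 in coQ10. Each group's replicate 2 had the lower ratio, by little in BAPN. Replicate numbers of different groups are not known to share an animal, litter or batch. The ratio ranges of all 4 replicated groups overlapped one another, while coQ10 lay below both BAPN libraries.

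**Figure D2:**
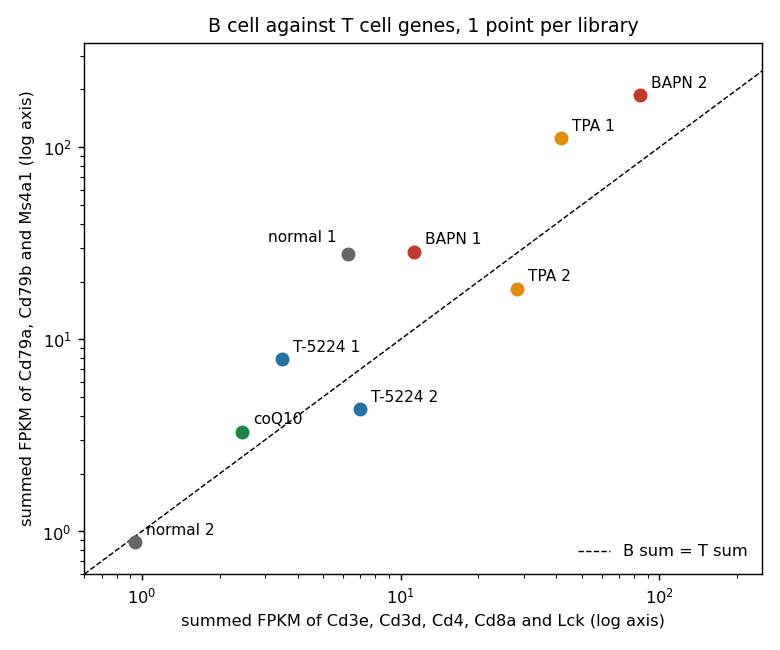
Summed FPKM of the 3 B cell genes against summed FPKM of the 5 T cell genes on log axes, 1 point per library, with a dashed line where the sums are equal. TPA replicate 2, T-5224 replicate 2 and normal replicate 2 lie below the line, with B to T ratios of 0.649, 0.618 and 0.936.

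Other genes of the T cell pathway were also mostly highest in BAPN replicate 2. Of 12 further receptor and co-receptor genes 9 were listed. All 9 were higher in BAPN replicate 2 than in replicate 1, against 5976 of the 12997 tested genes. The highest library was BAPN replicate 2 for 7 of the 9 and TPA replicate 1 for 2, where 8.14% and 2.35% of all tested genes had their highest value. Cd3g, the third CD3 chain, stood at 3.10 and 0.76 FPKM in normal, 5.86 and 44.75 with BAPN alone, 23.29 and 18.45 with TPA, 2.01 and unlisted with T-5224, and 1.69 in coQ10. Like Cd3e, it was unlisted in T-5224 replicate 2, while Cd2, an adhesion receptor of T and natural killer cells, was at 4.85 FPKM there. Of 15 signalling and transcription factor genes, 13 were highest in BAPN replicate 2. Among these were Tcf7, a transcription factor of naive and memory T cells, with 4.03 and 25.66 FPKM in BAPN, and Ccr7, the receptor that guides lymphocytes into lymph nodes, with 7.02 and 35.81.

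Most further B cell genes had their highest level in BAPN replicate 2, as Cd79a did. Of 17 listed B cell genes, 13 were highest in BAPN replicate 2, against 8.14% of all tested genes. All 17 were higher there than in BAPN replicate 1, against 5976 of the 12997 tested genes. Pax5, the transcription factor that fixes B cell identity, stood at 0.85 and 0.17 FPKM in normal, 17.39 and 237.75 with BAPN alone, 7.32 and 2.83 with TPA, 2.33 and 2.38 with T-5224, and 0.58 in coQ10. Its level in BAPN replicate 2 was above that of Cd79a in the same library, while in TPA replicate 1 it was far below that of Cd79a. Cd22, an inhibitory co-receptor of B cells, was at 58.92 FPKM in BAPN replicate 2 and 12.76 in TPA replicate 1, and Fcmr, the IgM Fc receptor, at 33.76 and 39.55. Ebf1, a B cell factor that fat and vascular cells also express, lay between 10.3 FPKM in BAPN replicate 1 and 31.7 in T-5224 replicate 2 and did not follow the other B cell genes.

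Plasma cell and precursor genes were mixed. Mzb1, a chaperone of antibody-secreting cells, was listed in 4 libraries, at 3.69 FPKM in normal replicate 1, 11.65 in BAPN replicate 2 and 8.73 and 1.05 with TPA, and so was highest where most lymphocyte genes were. Jchain, which joins secreted IgA and IgM, was at 48.23 FPKM in normal replicate 1 and 66.49 in TPA replicate 1, against 0.61 and 3.49 in BAPN. The libraries high in Jchain were also the pair highest in Scgb1a1, though Sftpc was at 188.89 FPKM in normal replicate 1 and 0.41 in TPA replicate 1. The part of airway tissue in the Jchain values was not tested. None of 14 constant-region symbols of the immunoglobulins and the T cell receptor was listed in any library. Whether the annotation used held these symbols is not known, so their absence cannot be read as a lack of expression. Il7r, the interleukin 7 receptor of T cells and lymphocyte precursors, was at 0.35 and 7.12 FPKM in BAPN, highest in replicate 2.

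Most of the thymic genes were highest in TPA replicate 2, where the T cell genes were high relative to the B cell genes. Of 15 thymocyte and thymic epithelium genes, 8 had their highest value there, and only this library listed all 15. Among all tested genes, which have a mean FPKM of 1 or more, 1.74% were highest there. Only 4 of the 15 reach that mean, so the shares are not alike. Of these 4, Cd1d1 and Tcf12 were highest in normal libraries, and Ccl25 and Tbata in TPA replicate 2. Tbata, a gene of thymic epithelium, was at 6.41 FPKM there and 4.90 in normal replicate 1, and Ccl25, a chemokine for thymocytes, was at 4.83. Prss16, a thymic protease chosen after its values were seen, was at 3.24 FPKM there and at most 0.13 in any other library. Levels of the defining genes were low: Foxn1 and Psmb11, also chosen after their values were seen, were at 0.17 FPKM each, Rag1, a recombinase gene, was at 0.62, and Dntt, an enzyme of receptor rearrangement, was at 2.54. The part of thymic tissue in the T cell values of this library was not tested.

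Genes of lymph node stroma and its high endothelial venules were high together with the lymphocyte genes in part of the libraries. Their 12 genes summed to 126 and 22.6 FPKM in normal, 239 and 3905 with BAPN alone, 1348 and 640 with TPA, 85.7 and 1615 with T-5224, and 49.3 in coQ10. The highest sum fell in BAPN replicate 2, as for the lymphocyte genes, but T-5224 replicate 2 had the next highest with a low lymphocyte sum. Glycam1, a glycoprotein of high endothelial venules, was at 33.34 and 1824.54 FPKM with BAPN alone, 501.06 and 163.03 with TPA, 0.21 and 339.88 with T-5224, and unlisted in coQ10. Ccl21a, a chemokine that draws T cells into lymph nodes, was at 115.13 and 1592.77 FPKM in BAPN and 66.80 and 842.99 in T-5224. Cxcl13, which draws B cells, was highest in T-5224 replicate 2, at 364.87 FPKM, where Ms4a1 was unlisted. The part of lymph node tissue in the lymphocyte values was not tested.

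Myeloid genes did not share this order. The 12 macrophage genes summed to 1086 and 283 FPKM in normal, 739 and 357 with BAPN alone, 1114 and 752 with TPA, 721 and 770 with T-5224, and 696 in coQ10. None of the 12 was higher in BAPN replicate 2 than in replicate 1, against 5976 of the 12997 tested genes. Neutrophil genes also had their higher BAPN sum in replicate 1, at 1916 against 1087 FPKM. Haemoglobin was nearly as high in BAPN replicate 1, at 68.9%, as in replicate 2, at 74.1%, while the lymphocyte sum differed 6.80-fold between them. Relative to Ptprc, which nearly all leukocytes carry and which was chosen after its values were seen, the T cell sum was 0.945 and 1.22 in normal, 1.76 and 3.43 with BAPN alone, 2.39 and 4.04 with TPA, 0.888 and 7.44 with T-5224, and 0.742 in coQ10. The high ratio of T-5224 replicate 2 rests on a Ptprc level of 0.940 FPKM.

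**Figure D3:**
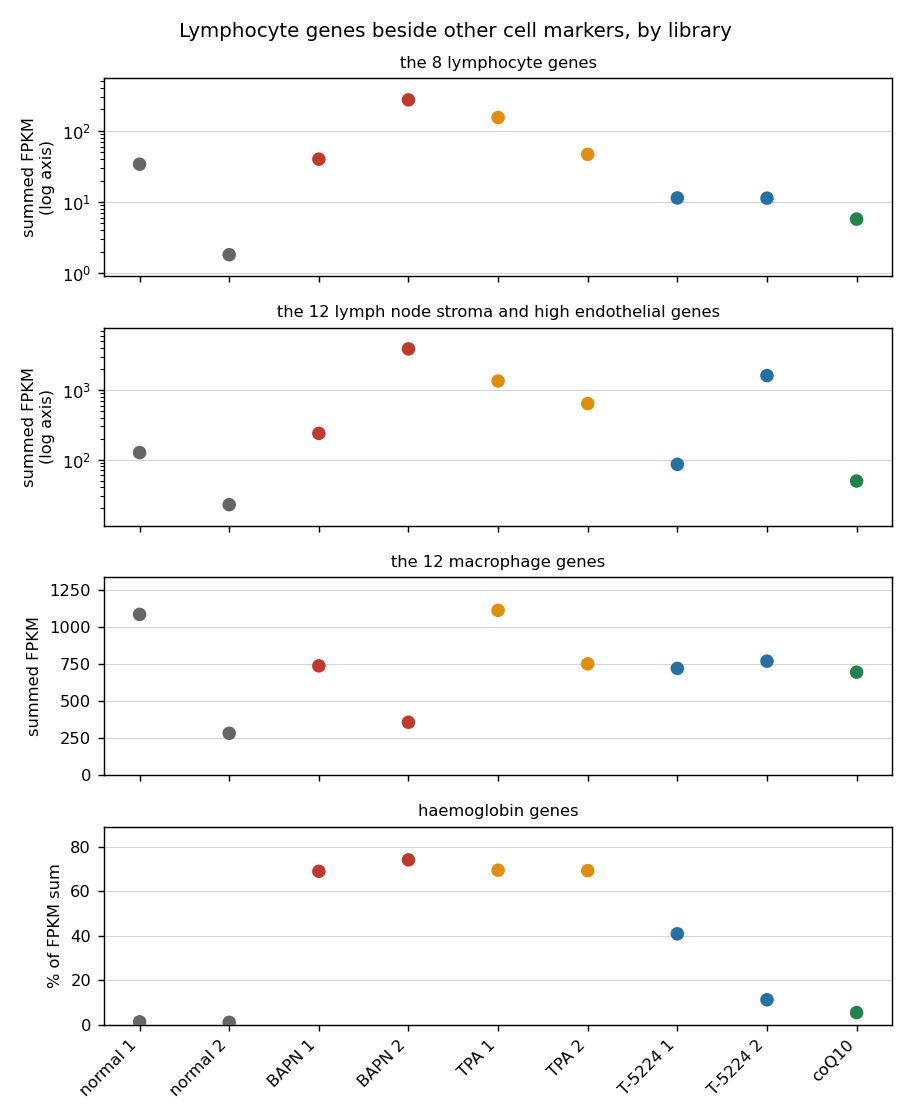
From top to bottom, the summed FPKM of the 8 lymphocyte genes and of 12 lymph node stroma genes on log axes, that of 12 macrophage genes on a linear axis, and haemoglobin as a percentage of the FPKM sum, for each library. BAPN replicate 2 is highest for lymphocytes and lymph node stroma (271 and 3905 FPKM) and lower than replicate 1 for macrophage genes (357 against 739 FPKM).

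Across the 9 libraries, the 10 genes with levels most like Cd3e included 5 of the listed T cell genes, 2 of the receptor list and 3 of the signalling list. Pearson's r of log2(FPKM + 1) was 0.990 for Cd6, 0.989 for Cd3g and 0.987 for Lef1, followed by Rhof, Cd27, Dapl1, Traf3ip3, Tcf7, Arhgap30 and Il2rb, down to 0.955. For Cd79a the most alike were Cd37 at 0.986, Fmnl1 at 0.980 and Slamf6 at 0.978, then Bcl11a, Pou2af1, Fcho1, Traf3ip3, Tbc1d10c and Psd4, down to 0.972. Of the 10 most like Cd79a, only 1, Pou2af1, was on the B cell list, and 1 was on the T cell signalling list. Traf3ip3 appeared for both Cd3e and Cd79a. Cd79a had r of 0.976 with Cd79b and 0.922 with Ms4a1, and Cd3e had r of 0.788 with Cd3d to 0.908 with Cd79a. The 9 points include replicates of the same groups and share BAPN replicate 2 as an extreme, so these are descriptions.

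BAPN against normal asked what the dissection model did to these genes in the aorta. All 8 had higher group means in BAPN, but none passed the test, against 3.26% of all tested genes. Every BAPN library exceeded every normal library for Cd3e, Cd3d, Cd8a, Lck and Cd79a, 5 of the 8, whereas 15% of all tested genes did so. For Cd3e the margin was very narrow, at 1.87 FPKM in BAPN replicate 1 and 1.85 in normal replicate 1. The normal and BAPN ranges overlapped for Cd4, Cd79b and Ms4a1. Cd79a went from 5.68 ± 7.49 FPKM (SD, n = 2) in normal to 65.7 ± 66.5 (n = 2) in BAPN, a log2 change of 3.54 (SE 1.31, 95% interval 0.42 to 6.66) with a limma Benjamini-Hochberg adjusted p of 0.121. Lck went from 0.830 ± 0.750 to 22.6 ± 25.6 FPKM, a log2 change of 3.11 (SE 0.878, 95% interval 1.02 to 5.20, limma adjusted p 0.0754). For Cd3d the log2 change was 2.64 (limma adjusted p 0.0892). Without BAPN replicate 2 the change was 1.65 for Lck and 1.41 for Cd3d, and without BAPN replicate 1 it was 4.57 and 3.87. The change of Cd79a was 2.28 without BAPN replicate 2, 1.98 without normal replicate 2 and 5.10 without normal replicate 1. The other 5 had limma adjusted p-values from 0.171 for Cd8a to 0.557 for Ms4a1. At an unadjusted p under 0.05 stood 3 of the 8 genes, and 32.4% of all genes.

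The median log2 change of the 8 genes was 2.12, beside -0.51 for all tested genes. It was 0.85 without BAPN replicate 2, 3.34 without BAPN replicate 1 and 1.20 without normal replicate 2. When each library was rescaled to the same FPKM sum (TPM), in which haemoglobin counts, the medians were 1.07 and -1.92, and all 8 changes stayed positive. Among the other pathway genes, none of 7 tested T cell receptor genes and none of 16 B cell genes passed, while Lat, the adaptor that couples the T cell receptor to its pathway, rose as 1 of 12 signalling genes. Lat stood at 1.50 and 0.40 FPKM in normal and 8.95 and 39.20 in BAPN, with a log2 change of 3.42 (SE 0.674, limma adjusted p 0.0499). Its call was lost in 12 of 17 alternative settings, among them each removal of a BAPN, normal, TPA or coQ10 library, where the adjusted p ranged from 0.0501 to 0.247. Ccl5, a chemokine of cytotoxic lymphocytes, rose as 1 of 4 tested natural killer genes, by 2.61 (SE 0.448, limma adjusted p 0.0474), and was also lost in 12 of 17, among them each removal of a BAPN, normal or TPA library. In the same comparison S100a8 and S100a9 of neutrophils and 5 of 8 red blood cell genes rose. Contractile smooth muscle genes were lower, with a median log2 change of -3.53 over 10 genes, of which Lmod1 and Synpo2 fell (limma adjusted p 0.0490 and 0.0339) and 9 had an unadjusted p under 0.05. The part of these other shifts in the lymphocyte values was not tested.

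TPA against BAPN asked whether activating AP-1 changed the lymphocyte genes further. No direction was visible: the median log2 change was -0.02, beside 0.18 for all genes. None of the 8 had groups that did not overlap, while 41.4% of all genes were higher and 21.2% lower in every TPA library. In limma 0 of 8 passed, against 0.0385% of all genes, and 0 had an unadjusted p under 0.05, against 10.2%. Changes ran from -0.93 for Cd3d to 0.95 for Cd4, with limma adjusted p-values from 0.664 to 0.975. The intervals are wide, for Cd79a from -3.87 to 2.37 around -0.75, so an increase or a decrease of several fold could not be told from no change. The sign of 7 of the 8 turned in at least 1 alternative, Cd4 being the exception.

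T-5224 against BAPN asked the same of AP-1 inhibition. All 8 group means were lower with T-5224, and both T-5224 libraries lay below both BAPN libraries for every gene except Cd4, 7 of 8, against 12.8% of all genes. None passed in limma, against 0.0308% of all genes, and 4 had an unadjusted p under 0.05, against 18.3%. Cd79a went from 65.7 ± 66.5 FPKM in BAPN to 2.62 ± 1.32 in T-5224 (SD, n = 2 each), a log2 change of -3.76 (SE 1.31, limma adjusted p 0.223). The Cd3e value was -2.05 (SE 0.740, limma adjusted p 0.231) and that of Cd4 -0.89 (SE 0.763, limma adjusted p 0.536). The median of the 8 was -2.10, beside 0.35 for all genes. Without BAPN replicate 2 the median was -0.95, with -2.50 for Cd79a, -1.08 for Cd3e and -0.10 for Cd4, and without BAPN replicate 1 the median was -3.20. The T-5224 replicates were also less alike over all genes than other pairs, with a Pearson's r of replicate 1 with 2 of 0.794, against 0.852 to 0.967. T-5224 replicate 2, where Cd3e and Ms4a1 were unlisted, listed the fewest genes of the 9 libraries, 13982, and its depth was not resolved. The part of this in its low values was not tested.

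coQ10 against BAPN rests on 1 coQ10 library, which the model assumed to vary like the others. The coQ10 values lay below both BAPN libraries for all 8 genes, against 24.1% of all genes, and Cd3d and Ms4a1 were unlisted. None passed in limma, against 0.0154% of all genes, with 3 at an unadjusted p under 0.05, against 19.8%. The changes ran from -1.58 for Cd4 to -4.38 for Cd79a, and limma adjusted p-values from 0.199 to 0.384. The median was -2.60, beside 0.39 for all genes. Without BAPN replicate 2 it was -1.43, with -3.11 for Cd79a, and without BAPN replicate 1 it was -3.74. TPA, T-5224 and coQ10 were compared with the same BAPN libraries, so a high BAPN replicate 2 enters each of these differences.

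TPA against T-5224 set the AP-1 activator beside the inhibitor. The libraries of BAPN alone did not enter these group means, but they did enter the spread shared by all comparisons, and so the SEs and p-values. Both TPA libraries were above both T-5224 libraries for all 8 genes, against 16.5% of all genes. The margin was narrow for Ms4a1, at 1.33 FPKM in TPA replicate 2 and 1.29 in T-5224 replicate 1. The largest change was that of Cd79a, from 2.62 ± 1.32 to 37.7 ± 37.5 FPKM, a log2 change of 3.01 (SE 1.31, limma adjusted p 0.466). Cd3e went from 0.420 ± 0.594 to 7.79 ± 1.39 FPKM, a log2 change of 2.69 (SE 0.740, 95% interval 0.92 to 4.45, limma adjusted p 0.443). None of the 8 passed, against 0.0154% of all genes, and 3 had an unadjusted p under 0.05, against 10.9%. The median of the 8 was 1.98, beside -0.08 for all genes, and it was 1.27 without TPA replicate 1. The libraries also differ in haemoglobin, at 69.2 to 69.4% in TPA against 11.2 and 40.8% in T-5224, and the part of this in the lymphocyte values was not tested.

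**Figure D4:**
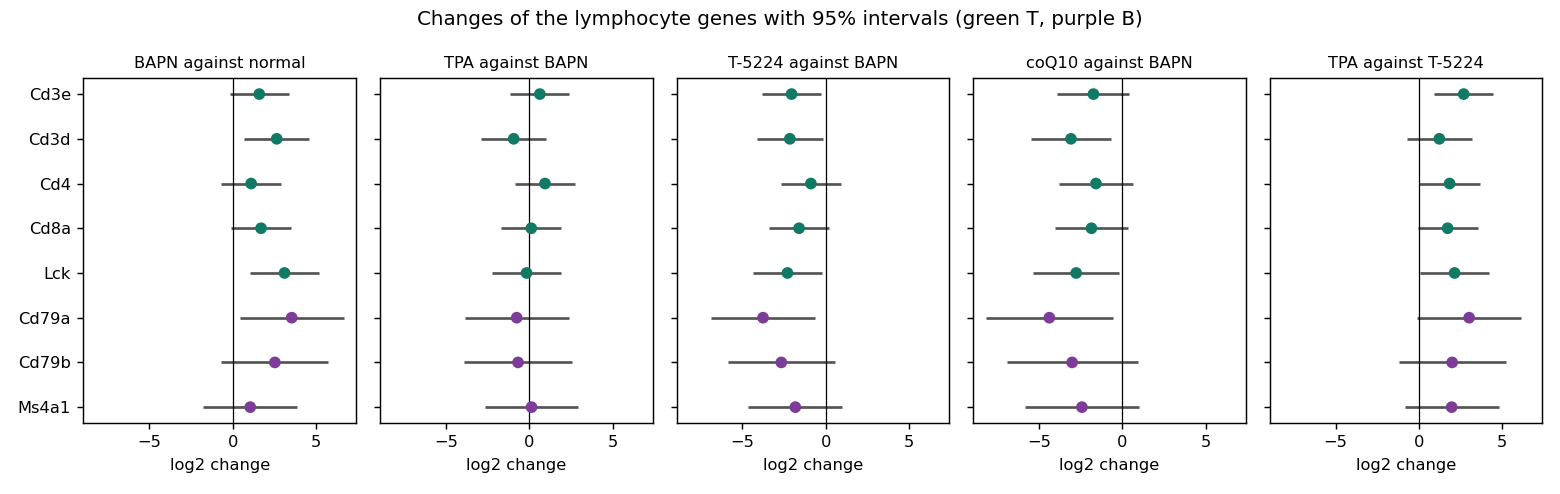
Log2 change of each lymphocyte gene in the 5 comparisons, on the log2(FPKM + 1) scale, with 95% intervals from limma; green points are T cell genes and purple points B cell genes. All 8 points lie right of 0 for BAPN against normal and for TPA against T-5224 and left of 0 for T-5224 and coQ10 against BAPN, and none passed the adjusted test.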

How the data were processed

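The authors deposited 1 table of FPKM per library, per the file headers, rounded to 2 decimals and without genes at 0. The build was mm10, per the submitters' processing notes. RNA was taken with Trizol and libraries made with a TruSeq RNA kit, per the labels' protocols. The aligner, counter and annotation were not given in the sources used here. FPKM carry no counts, so the depth is unknown and no count model was used. The spacing of low values put 6 of the other 8 libraries at 0.847 to 1.08 times the depth of BAPN replicate 2. The other 2, TPA replicate 1 and T-5224 replicate 2, were not resolved. T-5224 replicate 2 also listed the fewest genes, 13982, against 14682 to 16204 in the rest, so a gene unlisted there may have been missed. The 10 housekeeping genes checked were listed in all 9 libraries.

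FPKM were transformed to log2(FPKM + 1), and the 12997 genes whose mean FPKM was 1 or more were tested, all 8 lymphocyte genes among them. A fold change on this scale understates that of low genes. limma 3.58.1 in R 4.3.3 was fitted to 9 libraries in 5 groups (4 residual degrees of freedom), with variance moderated along the intensity trend. Two-sided p-values received a Benjamini-Hochberg adjustment per comparison over every tested gene, and 0.05 was the threshold. Such p-values reflect only how these samples vary, which may be technical. The fit was tested on simulated data with 200 changed genes in BAPN against normal. It recovered 31% of the changes of 2 log2 units and 91% of those of 4, and called 5 unchanged genes. Changes of 2 log2 units were thus mostly missed. The changed genes were drawn at random from all tested genes, so these shares do not describe the lymphocyte genes. Cd79a, with an SE of 1.31, was not called at a log2 change of 3.54 in BAPN against normal. Tables and plots used python 3.11.15, pandas 2.3.3, numpy 2.4.6 and matplotlib 3.10.9.

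The members and the 16 marker lists were chosen with earlier results of these data known. Named genes were the members, up to 4 genes per list by mean FPKM, and the 10 most like Cd3e and Cd79a, without clone-like symbols; the text gives a selection, and 1 such gene is not reported here. Alternatives were an offset of 0.1, no filter, only the compared groups, 3 scalings, a replicate block, each library left out, and normal replicate 1 and T-5224 replicate 2 left out together. The settings were run on Lat and Ccl5 after these had been seen to pass.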

Additional observations from a re-analysis of the deposited data

How the results depend on the processing

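The count of lymphocyte genes that passed was 0 in each comparison and stayed 0 in 81 alternative counts, 0 to 0 with each library left out. The 1 exception was BAPN against normal with normal replicate 1 and T-5224 replicate 2 left out together, where 1 gene passed: Cd79a, with a log2 change of 5.10 (limma adjusted p 0.0369). Only the BAPN and TPA pairs then gave the spread, with 2 residual degrees of freedom, and 1258 genes passed as higher and 2829 as lower. All 8 directions held in every alternative run for T-5224 against BAPN, coQ10 against BAPN and TPA against T-5224, and 7 of 8 for BAPN against normal, where Ms4a1 was -0.19 without normal replicate 2 and up to 2.30 with other libraries left out.

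In TPA against BAPN 7 of 8 turned. With a library left out, the log2 change ranged from -0.33 to 1.61 for Cd3e, -2.16 to 0.30 for Cd3d, -0.98 to 1.23 for Cd8a, -1.62 to 1.30 for Lck, -2.01 to 0.52 for Cd79a, -2.12 to 0.78 for Cd79b and -1.20 to 1.48 for Ms4a1. The turns came without BAPN replicate 1 (Cd3e -0.33, Cd8a -0.98, Ms4a1 -0.70), BAPN replicate 2 (Cd3d 0.30, Lck 1.30, Cd79a 0.52, Cd79b 0.78), TPA replicate 1 (Cd8a -0.28, Ms4a1 -1.20) and TPA replicate 2 (Cd79a 0.46, Cd79b 0.49). Median-of-ratios scaling gave -0.024 for Cd8a and -0.031 for Ms4a1, and TPM 0.025 for Lck. The median change of all genes in BAPN against normal moved from -0.51 to -1.92 with TPM and to 0.00 with median-of-ratios scaling. In the other comparisons TPM gave 0.34, 0.93, 1.63 and -0.52 for TPA, T-5224 and coQ10 against BAPN and TPA against T-5224.

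With the replicate number as a block over the 8 numbered libraries, 0 of 8 genes passed in the 4 comparisons it could be fitted for. Over all genes it called 8 in BAPN against normal, against 402 for the same 8 libraries without the block. Differences between replicates correlated at -0.44 to 0.18 between groups, and the labels do not tie the numbers to an animal or batch, so the numbers were not taken to pair the samples. The count over all genes in BAPN against normal was 424 with every library. It was 9703 with TPM, 227 with median-of-ratios scaling and 28 without haemoglobin in the sum. It was 152 with the offset of 0.1, 53 without the filter and 55 with only the compared groups. The count was far higher with either T-5224 library left out, and lower with any other library left out. The T-5224 libraries, whose titles give different weeks, were treated as replicates, with a Pearson's r of 0.794 between them. Their difference enters the spread shared by all comparisons, so this count depended on that pair. The fit on only the compared groups was not run for coQ10. Without counts, values near 0 cannot be given a counting error.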
